A study of Mus musculus with 9 samples.

Results

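Fibroblasts of the leptomeninges line the surface of the brain and the larger vessels that enter it. A small number of fibroblast-like cells was captured among the dissociated cells of sleep-deprived and control mice. Whether all of them came from the leptomeninges was not tested. Cells were taken as leptomeningeal fibroblast-like when they carried at least 3 unique molecular identifiers (UMIs, each standing for 1 captured transcript) of Dcn, Lum and Col1a1 summed. Of 29571 cells, 348 met this count. Of these, 43 lie in library 7 and were left out, because a published list of cells of that library already gives them a type, and 37 of the 43 are called pericytes there. The remaining 305 cells make up 1.03% of all cells (95% Clopper-Pearson interval 0.919 to 1.15%), and carried a median of 901 UMIs against 804 in the other cells.

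The study sequenced brainstem, cortex and hypothalamus of C57BL/6 mice (C57BL/6 J in the methods) aged 9 to 11 weeks and dissected at ZT12. One group slept normally (NS), one was kept awake for 12 h (SD, sleep deprivation), and one was then allowed to recover (RS, recovery sleep), for 24 h by the methods and for either 12 h or 24 h by the labels. Each region and sleep group is 1 library made from the joined tissue of 3 mice, which was digested by papain and cleared of myelin by magnetic beads before capture on the 10x Chromium system, so that no value has a replicate check. The 9 libraries carry codes that were not tied to a region or group here, apart from library 7, which holds the listed barcodes of brainstem NS. No other list of barcodes was searched. Libraries are therefore numbered in the order of the count table, and no comparison between sleep groups was made. Cell numbers are given for each library. Gene levels are given mostly over all libraries or for those with at least 20 fibroblast-like cells.

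The leptomeninges consist of the pia and the arachnoid. Their fibroblasts lay down collagen, proteoglycans and basement membrane, and carry transporters that move solutes between cerebrospinal fluid and brain. They are also a known source of lipocalin-type prostaglandin D synthase, the product of Ptgds, which makes prostaglandin D2, a sleep-promoting substance. Levels are UMIs summed over cells and given as CPM, the UMIs of a gene relative to all UMIs of the same cells, with exact Poisson 95% intervals that cover counting error only. Levels of different genes cannot be ordered by copies per base.

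Library size ran from 1522766 to 5488950 UMIs and from 2575 to 3916 cells. In libraries 4, 5 and 6 the pituitary hormone gene Gh made up 253878 to 321307 CPM of the other cells, and it also reached 61755, 6323 and 100028 CPM in the fibroblast-like cells there. Of the 3551 Gh UMIs in fibroblast-like cells, 1 cell held 40.8%. Gh stood at 0 to 338 CPM in the fibroblast-like cells of the other libraries. Its part in the results was not tested, and counts of genes without these 3 libraries are given beside the main ones. A total of 549 barcodes occurred in more than 1 library, among them those of 13 fibroblast-like cells, and no barcode was shared between fibroblast-like cells.

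The promoters of genes that lead the description below are printed to show the sequence context of the fibroblast programme. They were Col1a2 and Col3a1 (fibrillar collagens), Pdgfra (a growth factor receptor of fibroblasts), Apod and Slc6a13 (the most abundant lipid carrier and a transporter of these cells) and Ptgds. Each is the RefSeq window on GRCm38.p6 of 300 bases, 250 before and 50 from the transcript start on, 5′ to 3′ on the strand of the gene. Capitals mark TATAAA or CCAAT on either strand, 2 letter strings that do not overlap each other here. The windows are chr6:4505368-4505667 (+) for Col1a2, chr1:45311288-45311587 (+) for Col3a1, chr5:75152001-75152300 (+) for Pdgfra, chr16:31314759-31315058 (-) for Apod, chr6:121300038-121300337 (+) for Slc6a13 and chr2:25469700-25469999 (-) for Ptgds. The windows start from transcripts that begin 804 bases from the start of the gene in the GENCODE annotation for Col1a2, 297 for Ptgds, 61 for Slc6a13 and 41 for Pdgfra.
Col1a2: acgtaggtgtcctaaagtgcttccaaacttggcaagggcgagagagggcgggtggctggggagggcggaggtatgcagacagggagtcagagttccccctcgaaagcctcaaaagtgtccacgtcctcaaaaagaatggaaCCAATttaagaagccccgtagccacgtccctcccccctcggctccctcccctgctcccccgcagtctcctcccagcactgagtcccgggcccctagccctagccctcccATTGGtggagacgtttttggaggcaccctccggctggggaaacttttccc
Col3a1: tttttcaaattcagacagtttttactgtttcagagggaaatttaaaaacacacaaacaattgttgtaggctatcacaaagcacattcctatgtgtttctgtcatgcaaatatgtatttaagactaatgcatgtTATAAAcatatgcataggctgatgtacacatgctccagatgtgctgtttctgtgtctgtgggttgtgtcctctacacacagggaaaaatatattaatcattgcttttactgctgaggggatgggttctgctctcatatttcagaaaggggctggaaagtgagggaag
Pdgfra: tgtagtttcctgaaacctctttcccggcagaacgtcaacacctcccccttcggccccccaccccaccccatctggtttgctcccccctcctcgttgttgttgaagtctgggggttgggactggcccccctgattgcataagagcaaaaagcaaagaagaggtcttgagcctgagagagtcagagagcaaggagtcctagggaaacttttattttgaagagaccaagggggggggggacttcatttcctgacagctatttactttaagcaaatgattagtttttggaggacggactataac
Apod: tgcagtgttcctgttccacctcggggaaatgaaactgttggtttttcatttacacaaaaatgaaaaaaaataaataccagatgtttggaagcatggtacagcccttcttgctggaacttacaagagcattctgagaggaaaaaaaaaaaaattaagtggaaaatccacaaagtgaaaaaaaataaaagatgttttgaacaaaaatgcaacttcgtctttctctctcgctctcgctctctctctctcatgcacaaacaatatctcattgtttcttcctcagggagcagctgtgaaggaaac
Slc6a13: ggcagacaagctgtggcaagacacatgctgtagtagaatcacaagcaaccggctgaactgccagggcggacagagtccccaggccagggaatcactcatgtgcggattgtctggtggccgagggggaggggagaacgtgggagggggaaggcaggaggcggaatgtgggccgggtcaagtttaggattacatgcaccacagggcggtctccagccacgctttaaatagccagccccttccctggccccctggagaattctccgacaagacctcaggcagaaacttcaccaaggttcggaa
Ptgds: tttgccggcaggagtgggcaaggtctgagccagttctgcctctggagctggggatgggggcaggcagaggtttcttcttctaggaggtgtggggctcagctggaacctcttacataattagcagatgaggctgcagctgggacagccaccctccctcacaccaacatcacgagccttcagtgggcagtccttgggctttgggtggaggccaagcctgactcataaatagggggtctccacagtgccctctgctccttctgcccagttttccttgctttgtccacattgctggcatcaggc

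Col3a1 held 1 TATAAA, 117 bases before the start, and Col1a2 held 2 CCAAT, 109 bases before the start and at the start itself on the reverse strand. No such letters stood in the windows of Pdgfra, Apod, Slc6a13 or Ptgds. Of 32851 windows of all genes, 13.6% held TATAAA and 37.4% held CCAAT. Among the 147 windows of 111 genes that were higher in fibroblast-like cells, 19 (12.9%) held TATAAA and 53 (36.1%) held CCAAT, shares close to those of all windows. Windows of Dcn, Lum and Col1a1 were not used here.

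The fibroblast-like cells were spread unevenly over the libraries. Library 9 held 121 of them, 3.26% of its cells (interval 2.71 to 3.88%). Libraries 4, 5 and 8 held 40, 39 and 44, or 1.15%, 1.44% and 1.25%, and their intervals overlapped. Library 7 held 25 after the listed cells had been taken out, 0.670% of its 3731 cells and 1.44% of its 1732 unlisted cells, and 68 (1.82%) with them, so that its place among the libraries depends on that choice. Library 6 held 18 (0.460%). The lowest numbers were 3, 7 and 8 in libraries 1, 2 and 3, at 0.117%, 0.220% and 0.291%. The interval of library 9 lay above those of all other libraries. Without library 9, 184 cells remain. Which region, group, dissection or capture gave this order cannot be told apart.

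**Figure D1:**
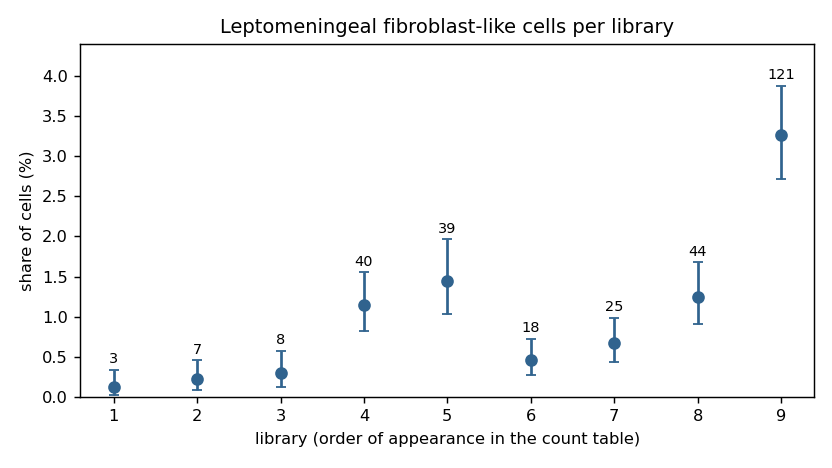
Share of cells called leptomeningeal fibroblast-like (percent, vertical axis) in each of the 9 libraries (horizontal axis), with exact binomial 95% intervals and the number of cells above each point. Library 7 is shown after 43 listed cells that met the rule had been taken out of its count but not of its total. Library 9 stands at 3.26% and the other libraries between 0.117 and 1.44%.

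Dcn encodes decorin and Lum encodes lumican, small proteoglycans that bind collagen fibrils, and Col1a1 encodes a chain of type I collagen. These 3 genes chose the cells, so their levels describe the choice only. Dcn lies at chr10:97479609-97518143 and Lum at chr10:97565128-97572703, both on the forward strand, and Col1a1 at chr11:94936224-94953042. A Dcn UMI was found in 296 of the 305 cells, a Lum UMI in 187 and a Col1a1 UMI in 121, and Dcn gave 72.6% of the UMIs counted by the rule. All 3 genes were found in 71 cells, 2 of them in 157 and 1 in 77. The median cell carried 6 UMIs of these genes and the highest 40.

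Cells on either side of the threshold were not alike in every gene. The 52 cells with exactly 3 UMIs of the rule genes had 5125 CPM of Apod and 1010 CPM of Col1a2, and the 91 cells with 2 UMIs, just outside, had 2214 and 707 CPM. Ptgds was 17746 CPM just inside and 18083 CPM just outside, and Igf2 was 1415 and 938 CPM. In the 86 cells with 10 or more UMIs of the rule genes Ptgds was 6310 CPM and Igf2 284 CPM, below both, while Apod was 10085 CPM and Serping1 1050 CPM, above both. The 345 cells with 1 rule UMI, further outside, had 6631 CPM of Ptgds and 241 CPM of Igf2, so that neither gene followed the number of rule UMIs in 1 direction, and 729 CPM of Apod and 100 CPM of Serping1.

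Of the 18 genes on the fibroblast marker list, which holds the 3 rule genes, 17 reached 50 CPM and all 17 were at least 4-fold higher in the fibroblast-like cells than in the other cells. A gene counted as higher when the ratio of its levels, after adding 10 CPM to both, was at least 4, and was above 1 in each of the 5 libraries with at least 20 fibroblast-like cells. Of all 3561 genes with at least 50 CPM in either group, 149 were higher by that measure (4.18%) and 120 were lower (3.37%), and the median log2 ratio of all of them was 0.17. Without libraries 4, 5 and 6 the number higher was 164, but the direction was then checked only in libraries 7, 8 and 9, a less strict rule. Since the cells were chosen by their expression, these counts and all that follow on the same cells describe them and are no test. Lama1 was the marker under 50 CPM. The 15 markers outside the rule summed to 25738 CPM in the fibroblast-like cells and 1423 CPM in the other cells, and to 15902 to 28631 CPM in the 5 libraries with at least 20 of these cells.

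Markers of other cell types were also found in these cells. The 9 microglia markers summed to 1094 CPM in the fibroblast-like cells against 3366 CPM in the other cells (298 to 1370 CPM in the 5 libraries), the 9 astrocyte markers to 827 against 2207 CPM (224 to 897 CPM), the 10 neuron markers to 742 against 4281 CPM (427 to 1342 CPM), with Slc17a6 at 0, and the 10 endothelial markers to 2123 against 2575 CPM (447 to 3455 CPM). The 8 border macrophage markers reached 90.9 CPM against 84.9 CPM (0 to 185 CPM), with Cbr2 and Cd209f at 0, and the 7 oligodendrocyte markers 145 against 67.9 CPM (50.6 to 410 CPM), of which Cldn11 was 125 CPM (71.0 CPM without library 7, 202 CPM without cells that met another class rule, and 36.4% of its 44 UMIs in 1 cell), with Mobp and Ermn at 0. The 9 pericyte markers summed to 3143 CPM, of which Vtn alone was 2444 CPM, against 802 CPM in the other cells and 15954 CPM in the cells of the pericyte rule (1491 to 4370 CPM in the 5 libraries). Smooth muscle markers summed to 1165 against 1753 CPM (766 to 1453 CPM), ependymal markers to 656 against 1152 CPM (101 to 1603 CPM), choroid plexus markers to 838 against 4269 CPM (53.4 to 1733 CPM), erythroid genes to 4299 against 22865 CPM (149 to 7296 CPM), and pituitary genes to 12855 against 126252 CPM (12.3 to 74687 CPM), with Fshb, Tshb and Pitx1 at 0. The part of such cells in the results was not tested, and no doublet caller was run. Of the 305 cells, 182 met no rule of another class, 95 also had at least 3 UMIs of the pericyte genes Vtn, Kcnj8 and Abcc9, 18 met the endothelial rule, 16 the smooth muscle rule and 7 the microglia rule. With the 182 cells alone, the number of genes higher than in the other cells was again 149.

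The calls of single genes moved with the cells and libraries kept, in a check added after the data had been seen. The genes followed were those of the lists below, the fibroblast markers and the 20 with the highest ratio, at 50 CPM or more in fibroblast-like cells. Of these 165 genes 83 were higher. The 20 had been drawn from genes already called higher and the rule genes were included, so part of this count was set by the choice. With the 182 cells alone 11 of the 83 did not pass, namely Aldh1a1, Bmp7, Col9a2, Cxcl12, Hspg2, Lama2, Slc38a2, Slc6a20a, Tnxb, Vtn and Zic1. With at least 5 UMIs of the rule genes Col9a2 and Wnt6 did not. Without the Gh-rich libraries 4, 5 and 6, 9 did not, among them Cdh11, Cxcl12, Fn1, Foxc1, Hspg2, Lrp1, Podn and Slc38a2. With 1 library left out, Lrp1 and Slc38a2 did not pass without library 4, Podn without library 5, and Cxcl12, Lrp1 and Slc38a2 without library 6. Col5a2, Fn1, Loxl1 and Slc38a2 did not pass without library 7, and Col9a2 and Wnt5a did not without library 9. Other genes of the lists passed under these settings and not over all cells. They numbered 7 with the 182 cells, 14 with at least 5 UMIs of the rule genes, 12 without the Gh-rich libraries, and 10, 8 and 7 without libraries 7, 5 and 9. Without 1 of the other libraries they numbered 0 to 3. A library of at least 20 fibroblast-like cells that was left out also left the direction check, so that a gene could pass for that reason.

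Fibrillar collagens, the tensile fibres of connective tissue, were higher in the 4 genes described of 11 on the list, Col1a1 of the rule among them. The other 7 stayed under 50 CPM in both groups. Col1a2, which encodes the other chain of type I collagen, measured 1416, 1416, 1086, 1074 and 861 CPM in the fibroblast-like cells of libraries 4, 5, 7, 8 and 9. In the other cells of the same libraries it measured 26.9, 30.9, 39.6, 52.0 and 52.4 CPM, so that the groups did not overlap. Over all libraries it was 994 CPM (893 to 1104) against 35.7 CPM, a ratio of 22.0. Col3a1, the type III collagen of soft tissue, was 529 CPM against 6.86 CPM, a ratio of 31.9, and ran from 444 CPM in library 8 to 745 CPM in library 4. Col5a2, which helps to start fibrils, was 62.5 CPM against 4.38 CPM.

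Of the small leucine-rich proteoglycans, which space collagen fibrils, 8 of 10 genes described were higher, including the rule genes Dcn and Lum. Ogn (osteoglycin) was 631 CPM against 24.4 CPM and Bgn (biglycan) was 571 CPM against 25.3 CPM. Fmod (fibromodulin) was 236 CPM against 8.08 CPM, and Omd, Prelp and Podn also passed. Ecm2, at 90.9 CPM, and Aspn, at 36.9 CPM against 51.4 CPM, did not.

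Basement membrane genes were higher in 6 of 12 cases (1 of 12 against the cells of the pericyte rule compared below). Nid1 (nidogen, which joins laminin to collagen) was 233 CPM against 10.5 CPM, and Col15a1 was 116 CPM against 2.64 CPM. Lama2, Lamb1, Hspg2 and Col18a1 passed as well. The type IV collagen genes Col4a1 (114 CPM against 38.6 CPM) and Col4a2 (88.1 CPM against 26.7 CPM), the core of every basement membrane, did not. Of the remaining collagens 4 of 6 were higher, namely Col6a1, Col6a2, Col8a1 and Col9a2, with Col6a1 at 119 CPM against 5.89 CPM. Col12a1, at 134 CPM against 3.99 CPM, failed because it was not found in library 5.

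Matrix glycoproteins and elastic fibre genes were higher in 10 of 22 cases. Mgp, an inhibitor of calcification, measured 7491, 10926, 6126, 6407 and 3239 CPM in libraries 4, 5, 7, 8 and 9, and 83.8 to 633 CPM in the other cells there. Spp1 (osteopontin) was 2248 CPM against 76.2 CPM, with 5092 CPM in library 8 and 1371 CPM in library 7. The microfibril genes Mfap5 and Mfap4 were 270 CPM against 2.38 CPM and 230 CPM against 1.29 CPM, ratios of 22.6 and 21.3, and Mfap4 was 349 CPM without library 9, 350 CPM without cells that met another class rule and 125 CPM without libraries 4, 5 and 6. Efemp1, a fibulin, was 466 CPM against 19.9 CPM. Fn1 (fibronectin) was uneven, with 1549 CPM in library 7 and 112 to 607 CPM in the 4 libraries 4, 5, 8 and 9, and without library 7 it was 220 CPM against 71.0 CPM, under 4-fold. Sparc, a collagen-binding protein, was 958 CPM against 477 CPM and did not pass, and its relative Sparcl1 was 460 CPM against 776 CPM.

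Among the genes that fold and cross-link collagen 2 of 8 were higher, Pcolce and Loxl1. Pcolce, which speeds the trimming of procollagen, was 673 CPM against 19.2 CPM, a ratio of 23.4, and stood between 593 and 969 CPM in the 5 libraries. The collagen chaperone gene Serpinh1 was 347 CPM against 82.1 CPM, just under 4-fold. Of the list of proteases and their inhibitors 3 of 8 were higher, namely Timp3, Serpinf1 and Serping1. Serping1, which blocks the first complement proteases, was 796 CPM (705 to 894) against 18.4 CPM, a ratio of 28.4, and varied little, between 634 and 1113 CPM. Timp3, which blocks metalloproteinases, was 1938 CPM against 320 CPM, and Serpinf1 was 296 CPM against 9.24 CPM.

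**Figure D2:**
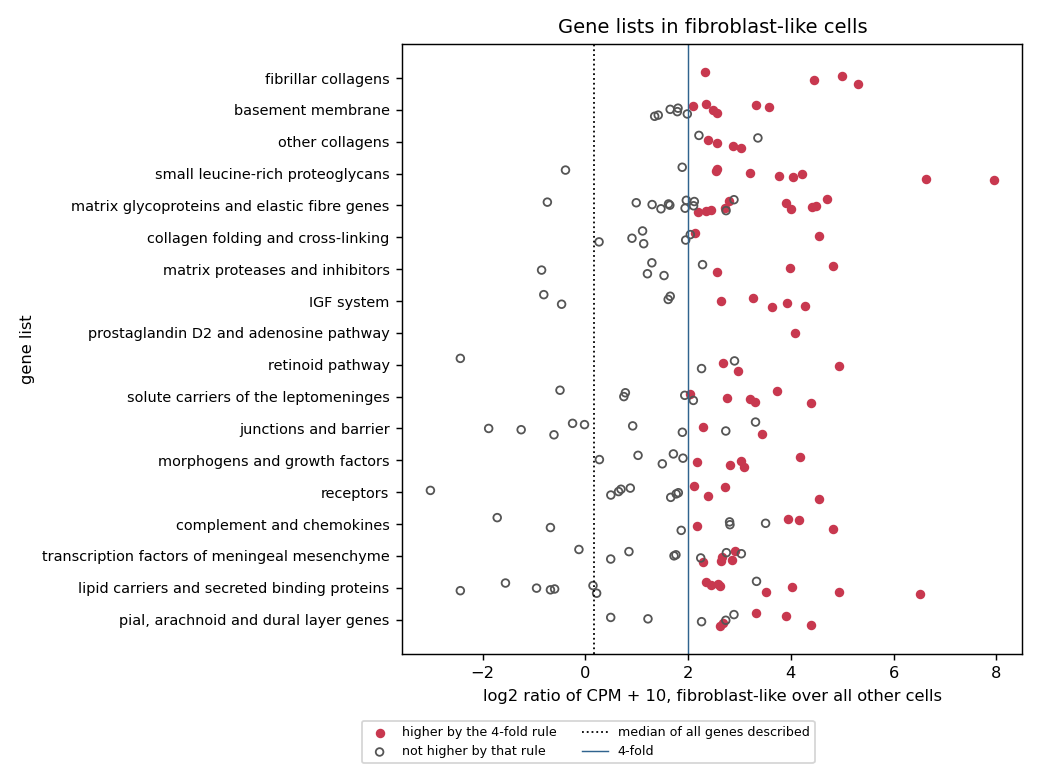
Log2 ratio of CPM + 10 in fibroblast-like cells over all other cells (horizontal axis) for each gene described of 18 lists (vertical axis). Filled points passed the 4-fold measure, open points did not, the solid line is 4-fold and the dotted line is the median of all genes described, 0.17.

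Apod, which encodes the lipid carrier apolipoprotein D, was the gene with the highest ratio outside the rule genes. It measured 8423, 4704, 7265, 12537 and 7222 CPM in libraries 4, 5, 7, 8 and 9, and 22.9 to 205 CPM in the other cells of the same libraries. Among these 5 libraries, library 8 was the highest and library 5 the lowest, and none of them overlapped with the other cells. Over all libraries Apod was 8450 CPM (8149 to 8760) against 82.0 CPM, a ratio of 91.9. With only cells of at least 1000 UMIs Apod was 5465 CPM in the fibroblast-like cells. An Apod UMI was found in 266 of the 305 cells. Of the cells of the microglia rule, which have at least 3 UMIs of Cx3cr1, P2ry12 and Tmem119 and serve as the background of free RNA, 2.93% carried one, and of fibroblast-like cells 87.2%. After each cell had been thinned to 500 UMIs, which left out 48 shallower fibroblast-like cells, the shares were 1.61% and 75.9%. Such shares, here and below, are not matched by library. Of the 1777 microglia rule cells 814 lay in library 7, 292 in library 9 and 29, 6 and 5 in libraries 4, 5 and 6.

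Of the other lipid carriers and secreted binding proteins 7 more passed, so that 8 of 16 were higher (2 of 16 against the pericyte rule). Vtn (vitronectin) was 2444 CPM against 205 CPM, Ptn (pleiotrophin, a growth factor) was 4612 CPM against 834 CPM, and Islr was 381 CPM against 14.0 CPM. Vtn is a gene of the pericyte rule, and without cells that met another class rule it was 454 CPM, a ratio of 2.16, which did not pass. Ptn was lower in libraries 4 and 5, at 1267 and 910 CPM, than in libraries 7, 8 and 9, at 4327, 4944 and 5680 CPM. Apoe (5106 CPM against 4387 CPM) and Cst3 (5683 CPM against 8614 CPM) were abundant in both groups and did not pass. Ttr, a carrier made by the choroid plexus, was 770 CPM against 4207 CPM. Of its 271 UMIs in fibroblast-like cells 268 lay in library 9, whose other cells measured 27584 CPM.

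Retinoid genes were higher in 3 of 6 cases. Rbp4, the retinol carrier, was 949 CPM against 21.2 CPM. Aldh1a1 was 222 CPM against 19.7 CPM and Crabp2 was 90.9 CPM against 5.80 CPM. Aldh1a2, the enzyme that makes retinoic acid in the meninges, was 105 CPM against 14.0 CPM over all libraries, but 37.3 CPM in both groups of library 4, and so did not pass. It was 63.4 CPM, a ratio of 2.84, without library 9, and 65.7 CPM without cells that met another class rule, and it passed without library 4, without libraries 4, 5 and 6 and with at least 5 UMIs of the rule genes. Cyp26b1 was not found in libraries 4 and 7, and was 221 CPM in library 9, and 42.3 CPM over the libraries without library 9.

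Solute carriers were higher in 6 of 11 cases (1 of 11 against the cells of the pericyte rule compared below). Slc6a13, a GABA and taurine transporter, was 313 CPM against 5.41 CPM, a ratio of 20.9. It measured 74.5 CPM in library 4, where 2 UMIs were counted, and 354, 214, 463 and 320 CPM in libraries 5, 7, 8 and 9. Without cells that met another class rule it was 202 CPM, and Slc6a20a fell from 281 to 175 CPM and Gjb2 from 173 to 104 CPM. Slc7a11, the cystine and glutamate exchanger, was 693 CPM against 42.6 CPM and ran from 224 CPM in library 4 to 885 CPM in library 9. Slc6a20a, Slc13a4, Slc22a6 and Slc38a2 also passed, and Slc1a3, an astrocyte glutamate transporter, was 207 CPM against 296 CPM. Of the junction and barrier genes 2 of 11 were higher, the gap junction gene Gjb2 (173 CPM against 6.96 CPM) and the cadherin gene Cdh11 (111 CPM against 14.6 CPM). Gjb6, which pairs with Gjb2, was 401 CPM against 101 CPM and fell short. Of 10 genes described of the pial, arachnoid and dural layers 5 were higher, namely S100a6, Slc6a13, Crabp2, Mgp and Col15a1. This list joins the layers, the dura included, so that its count does not place the cells in any of them.

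Receptors were higher in 4 of 12 cases, and 1 was lower. Pdgfra, the receptor that marks fibroblasts and oligodendrocyte precursors, measured 261, 202, 196, 500 and 283 CPM in libraries 4, 5, 7, 8 and 9. It measured 0.508 to 6.79 CPM in the other cells of those libraries, and the ratio over all was 23.5. Fgfr1 (349 CPM against 58.9 CPM), Lrp1 (378 CPM against 79.1 CPM) and Itgbl1 passed too, and Thy1 was lower, at 8.52 CPM against 140 CPM. Of the morphogens and growth factors 5 of 10 were higher. Ctgf, a matricellular factor, was 699 CPM against 29.1 CPM, and Bmp4, Bmp7, Wnt5a and Wnt6 were 122, 99.4, 99.4 and 90.9 CPM. Of the transcription factors of meningeal mesenchyme 5 of 13 were higher: Foxc1 (222 CPM against 37.5 CPM), which is needed for meningeal development, Foxc2, Foxd1, Zic1 (261 CPM against 33.0 CPM) and Nr2f2 (585 CPM against 69.3 CPM). Tcf21 was 73.9 CPM against 0.225 CPM but was not found in libraries 7 and 8.

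Complement and chemokine genes were higher in 4 of 10 cases, namely Serping1, Cxcl12, Ccl19 and Il33. Cxcl12, a chemokine that attracts leukocytes and progenitor cells, was 534 CPM against 111 CPM. Il33, an alarmin, was 270 CPM against 8.18 CPM, with 857 CPM in library 4 and 89.0 CPM in library 7. Ccl7 was 193 CPM against 7.86 CPM, but its 68 UMIs lay in 8 cells and 45.6% of them in 1 cell, and without library 9 it was 26.4 CPM against 5.39 CPM.

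Of the remaining genes among the 20 with the highest ratio, Inmt, an enzyme that methylates tryptamine and other amines, was at 529 CPM against 2.13 CPM, a ratio of 44.4. Without library 4 Inmt was 289 CPM, a ratio of 26.1, and without libraries 4, 5 and 6 it was 188 CPM, a ratio of 17.2, while without cells that met another class rule it was 865 CPM, a ratio of 72.1. It was found in 25.9% of the cells. It measured 3429 CPM in library 4, 607 CPM in library 5 and 1590 CPM in library 6. In libraries 7, 8 and 9 it measured 196, 92.6 and 221 CPM. The stress-response gene Nupr1 was 1932 CPM against 63.7 CPM, Cyp1b1, a cytochrome P450, was 190 CPM against 2.16 CPM, and Gsn (gelsolin, which severs actin filaments) was 1816 CPM against 89.2 CPM. Gsn measured 4211 and 8144 CPM in libraries 4 and 5 and 1478, 1018 and 1156 CPM in libraries 7, 8 and 9, and 1185 CPM without libraries 4, 5 and 6. Among the libraries given, the highest values of Inmt (libraries 4 and 6) and of Gsn (libraries 4 and 5) stood in libraries rich in Gh. Gsn is not given for library 6, which is also rich in Gh. Slc6a13 was low in libraries 4 and 6 but not in library 5. The part of the tissue that these libraries came from was not tested.

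**Figure D3:**
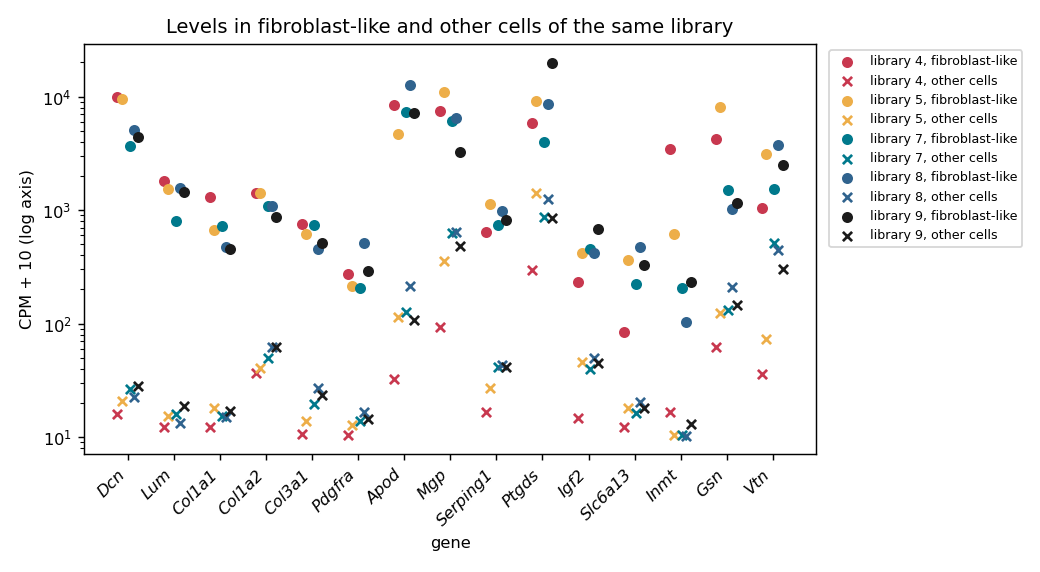
CPM + 10 (vertical log axis) of 15 genes (horizontal axis) in fibroblast-like cells (circles) and in the other cells (crosses) of libraries 4, 5, 7, 8 and 9, those with at least 20 fibroblast-like cells. Inmt is highest in library 4 (3429 CPM) and Ptgds in library 9 (19878 CPM), and Col1a2 and Serping1 lie close together in all 5.

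Genes of the insulin-like growth factor (IGF) system were higher in 5 of 9 cases. Igf2, a growth factor of chr7:142650766-142666816 on the reverse strand, measured 224, 405, 445, 407 and 670 CPM in libraries 4, 5, 7, 8 and 9. The other cells of those libraries measured 4.82 to 40.1 CPM, with no overlap. Over all libraries Igf2 was 571 CPM (495 to 656) against 19.9 CPM, a ratio of 19.4, and it was found in 27.2% of the fibroblast-like cells and 0.506% of the cells of the microglia rule, or 20.2% and 0.386% after thinning. Without cells that met another class rule Igf2 was 350 CPM, and with at least 5 UMIs of the rule genes it was 379 CPM. Igf1 was 207 CPM against 7.47 CPM. The binding proteins Igfbp2 (1446 CPM against 86.0 CPM), Igfbp6 (725 CPM against 67.0 CPM) and Igfbp4 (281 CPM against 36.8 CPM) were higher. Igfbp5 (619 CPM against 196 CPM) and Igfbp7 (1253 CPM against 392 CPM) fell short of 4-fold. Igfbp5 passed without library 9, at 956 CPM against 214 CPM, without library 6, without libraries 4, 5 and 6, and without cells that met another class rule, at 941 CPM. Igfbp7 passed without library 7 and without cells that met another class rule. The receptor gene Igf1r was 128 CPM against 180 CPM, and 84.5 CPM without library 9.

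Ptgds, at chr2:25466709-25470046 on the reverse strand, was the most abundant of the named genes. It measured 5888 CPM in library 4, 9105 CPM in library 5, 3971 CPM in library 7, 8555 CPM in library 8 and 19878 CPM in library 9. The other cells of these libraries measured 287, 1402, 863, 1242 and 840 CPM. Among these 5 libraries, library 9 was the highest and library 7 the lowest, and each of them lay above its own other cells. The highest to lowest ratio among them was 5.01 (interval 4.37 to 5.76), 2.29 without library 9 and 3.38 without library 7. It was also 3.38 with the listed cells of library 7 kept in, so that the place of library 7 as the lowest depends on that choice. With at least 5 UMIs of the rule genes the ratio was 2.33. In libraries 2 and 3, with 7 and 8 cells, Ptgds was 40203 and 65140 CPM. Over all libraries it was 14702 CPM (14304 to 15108) against 856 CPM, a ratio of 17.0. Of the other members of the prostaglandin D2 and adenosine list, none reached 50 CPM in either group.

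The Ptgds level of the fibroblast-like cells came from few of them. A Ptgds UMI was found in 112 of the 305 cells, 36.7% (31.3 to 42.4%), against 14.1% (12.5 to 15.8%) of the microglia rule cells, at median depths of 901 and 757 UMIs. After thinning to 500 UMIs the shares were 29.6% (24.1 to 35.6%) of 257 cells and 9.01% (7.64 to 10.6%) of 1553 cells. Of the 5174 Ptgds UMIs 10 cells held the upper 50%, and the 56 cells with 10 or more UMIs held 97.2%. The highest cell carried 455, and in 1 cell Ptgds made up 25.7% of all UMIs. The fibroblast-like cells held 16.0% of all Ptgds UMIs of the table. Apod was shared out more evenly, since it took 45 cells to reach 50% of its 2974 UMIs. Mgp needed 24 cells, Spp1 23 and Igf2 14.

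**Figure D4:**
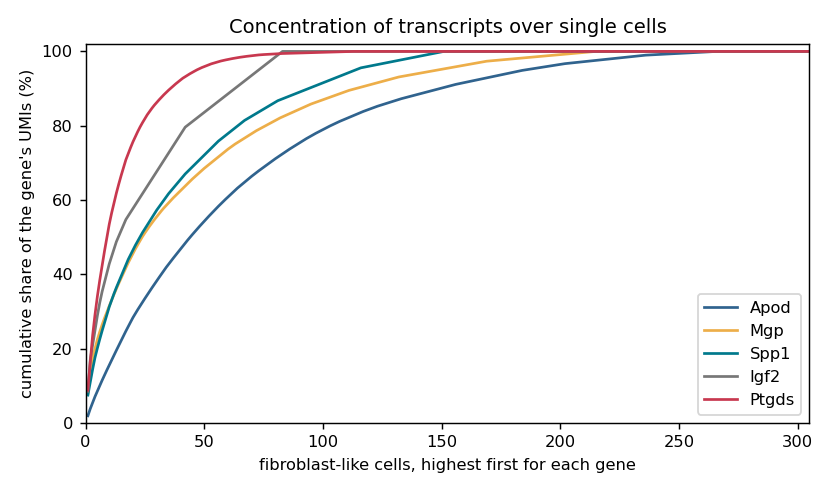
Cumulative share of a gene's UMIs (percent, vertical axis) over the 305 fibroblast-like cells, ordered from the highest cell of each gene (horizontal axis), for Apod, Mgp, Spp1, Igf2 and Ptgds. Ptgds rises fastest, reaching 86.3% in the 30 highest cells, and Apod slowest, at 38.2%.

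Cells with much Ptgds differed from the rest in other genes. This split was chosen after the values had been seen and is a description, and CPM is relative here to all UMIs other than Ptgds. It takes no account of the depth of a cell, and a further 56 cells, with 1 to 9 Ptgds UMIs, are left out. In the 56 cells with 10 or more Ptgds UMIs Igf2 was 1215 CPM (976 to 1495), and in the 193 cells with none it was 438 CPM (349 to 544). Slc6a13 was 464 CPM (321 to 649) and 225 CPM (162 to 304), and Gjb2 was 396 CPM (265 to 569) and 107 CPM (65.3 to 165). Igf2, Slc6a13 and Gjb2 were thus higher in the cells with much Ptgds. Inmt was lower there, at 68.3 CPM (22.2 to 159) against 909 CPM (777 to 1056). Dcn and Lum chose the cells and are not compared in this split. Col1a2 was 942 CPM (733 to 1192) and 1171 CPM (1021 to 1336), with intervals that overlapped.

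Because libraries differ in these genes, the same split was read within library 9, which held 27 of the 56 cells and 66 of the 193. Igf2 was 1364 CPM (1009 to 1803) with much Ptgds and 562 CPM (410 to 752) with none. Slc6a13 was 584 CPM (362 to 893) and 175 CPM (95.5 to 293). Both genes kept their direction, with intervals that did not overlap. The intervals here pool the UMIs of all cells of a group and do not measure the spread between cells. Inmt was 55.7 CPM (6.74 to 201) and 387 CPM (263 to 549), which did not overlap, and Gjb2 was 306 CPM (153 to 548) and 112 CPM (51.4 to 213), which did. In library 8 the 9 cells with much Ptgds had 289 CPM of Igf2 and the 27 cells with none had 543 CPM, the opposite order to library 9. The split used Ptgds itself, and doublets or free RNA as its source were not tested.

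Cells of the pericyte rule, with at least 3 UMIs of Vtn, Kcnj8 and Abcc9 and of no other rule, were compared with the fibroblast-like cells first. Pericytes are the contractile cells that wrap capillaries. Of 3383 genes, 98 were at least 4-fold higher in fibroblast-like cells than in these 615 cells (2.9%) and 85 were lower (2.51%), with the direction checked in libraries 7, 8 and 9, and 103 were higher without libraries 4, 5 and 6. Of the 17 fibroblast markers described, 9 were higher, among them the 3 rule genes. Ptgds, Igf2, Slc6a13, Fbln1, Mgp, Foxc1, Cdh11 and Fmod did not pass. The remaining collagens passed in 4 of 6 cases, and matrix glycoproteins and elastic fibre genes in 7 of 22. Solute carriers passed in 1 of 11 cases, basement membrane genes in 1 of 12, and lipid carriers and secreted binding proteins in 2 of 16. The fibrillar collagens Col1a2, Col3a1 and Col5a2 were higher, and Col1a1 was set by the choice of the fibroblast-like cells. Apod was 8450 CPM against 625 CPM, Pdgfra was 290 CPM against 17.1 CPM, Mfap5 was 270 CPM against 2.13 CPM and Il33 was 270 CPM against 8.53 CPM. Of the 9 pericyte markers 7 were lower, but Kcnj8 and Abcc9 are genes of the pericyte rule, so that their direction was set by the choice of cells. The other 5 were Higd1b, Rgs5, Atp13a5, Notch3 and Cspg4, with Rgs5 at 310 CPM against 3776 CPM. None of the 14 transcription factors of meningeal mesenchyme described was higher or lower, with Zic1 at 261 CPM against 331 CPM and Foxc1 at 222 CPM against 190 CPM.

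Ptgds and Igf2 did not separate the fibroblast-like cells from the cells of the pericyte rule. Ptgds was 7495 CPM in the latter and Igf2 was 446 CPM, ratios of 1.96 and 1.27. Of those 615 cells 295 had neither a Kcnj8 nor an Abcc9 UMI, and had entered through Vtn. When the class was drawn instead from at least 2 UMIs of Kcnj8 and Abcc9, a choice made after the data had been seen, its 144 cells had 232 CPM of Ptgds (149 to 345), 38.7 CPM of Igf2 (10.5 to 99.0) and 164 CPM of Apod. Against these cells 229 genes were higher in place of 98. The direction was checked only in libraries with at least 20 cells of each class, and the share of genes described is not given. The rise from 98 to 229 therefore cannot be read as a result about the cells. Vtn itself was 6312 CPM there and Zic1 396 CPM. Of the 95 fibroblast-like cells that also met the pericyte rule, 76 likewise had no UMI of Kcnj8 or Abcc9.

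Smooth muscle cells, chosen by at least 3 UMIs of Acta2, Tagln and Myh11, were the other mural class. Of 3281 genes, 185 were higher in fibroblast-like cells than in these 1741 cells (5.64%) and 121 were lower (3.69%), and 248 were higher without libraries 4, 5 and 6. For the 248 the direction was checked only in libraries 7, 8 and 9, and for the 185 also in libraries 4 and 5. Ptgds was 14702 CPM against 356 CPM, Igf2 was 571 CPM against 10.6 CPM and Slc6a13 was 313 CPM against 2.35 CPM. All 8 smooth muscle markers were lower, of which Acta2, Tagln and Myh11 had chosen those cells, so that their direction was set by the choice. The other 5 were Myl9, Cnn1, Mylk, Des and Tpm2, with Myl9 at 398 CPM against 7103 CPM. Mgp was 4953 CPM against 826 CPM, and Foxc1 was 222 CPM against 142 CPM and did not pass.

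**Figure D5:**
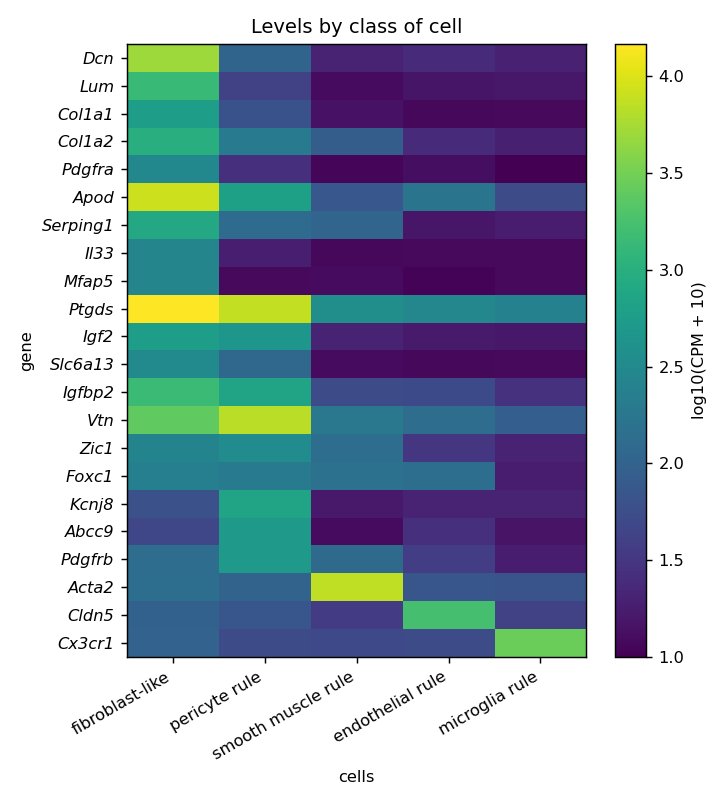
Level of 22 genes (vertical axis) in fibroblast-like cells and in cells of the pericyte, smooth muscle, endothelial and microglia rules (horizontal axis), as log10 of CPM + 10 (colour). Apod and Serping1 are highest in fibroblast-like cells, Ptgds is 14702 CPM there and 7495 CPM under the pericyte rule. Dcn, Lum and Col1a1 in fibroblast-like cells and the genes of each other class rule in that class, such as Vtn under the pericyte rule, were set by the choice of cells.

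Among the 120 genes that were lower than in the other cells were 3 of the 7 neuron markers described, Snap25, Syt1 and Meg3. Cck, a neuropeptide, was not found in fibroblast-like cells (interval 0 to 10.5 CPM) and was 298 CPM in the other cells. Nrgn, a calmodulin-binding protein of synapses, was 14.2 CPM against 626 CPM, and Snap25, of the vesicle release machinery, was 42.6 CPM against 557 CPM. The hemoglobin gene Hbb-bt was 173 CPM against 1919 CPM.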

How the data were processed

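Single-cell RNA was measured in 9 libraries, each of tissue pooled from 3 mice. The UMI counts that the authors deposited are whole numbers without normalization, in 1 table of 18634 genes by 29571 cells. It came from Cell Ranger 2.2.0 with GRCm38, according to the submitters' processing notes, and the annotation release is not given in the sources used here. Columns carry a barcode and a library code, and there were 0 other columns of samples. Table columns name no sample, so that libraries were not assigned to groups.

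Counts were summed per library and class, scaled to CPM, and given with exact Poisson intervals, or exact Clopper-Pearson intervals for shares of cells, at 95% and for counting error only. Genes with at least 50 CPM in either group were described, and a gene was called at a 4-fold ratio of CPM + 10 with the same direction in each library of at least 20 fibroblast-like cells. No p-value was computed, since cells are not replicates and each group is 1 library. The members and the gene lists were chosen with earlier results of these data known. Named genes were the rule genes, the fibroblast markers, at most 6 genes of each list with at least 50 CPM, by level or by ratio, and the 20 genes with the highest ratio. Some genes are not reported here, and the counts and sums over gene lists were computed without them. Cells were thinned to 500 UMIs by random draws (seed 7). In simulated data on fibroblast-like cells against all other cells, run on 3187 genes, 76 of 100 genes raised 6-fold and 100 of 100 genes raised 12-fold were called, and 0 of 2987 unchanged genes. The simulated counts came from 1 profile, that of the other cells, in all libraries and carried counting error only. They held no differences between libraries or between cells, so these numbers are not error rates for the real data. Gene positions came from GENCODE on GRCm38 and promoter windows from RefSeq on GRCm38.p6, of which 111 of 149 higher genes had one. The alternatives changed the rule, the cells kept, the libraries, the totals, the number of CPM added and the lowest CPM. The tools were matplotlib 3.10.9, pandas 2.3.3, scipy 1.17.1 and numpy 2.4.6 under Python 3.11.15.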

Additional observations from a re-analysis of the deposited data

Results flagged for a closer look

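In library 7, 43 cells that a published list of cells had already given a type also met the UMI rule, and they enter no comparison above. Of these, 37 are called pericytes there, out of 168 with that name, 5 oligodendrocytes, out of 43, and 1 a glutamatergic neuron, out of 55. The rule that split the listed pericytes uses Dcn, Lum and Col1a1, so that these genes are not compared. The 37 cells had 11952 CPM of Apod and 10413 CPM of Ptgds, with 1 UMI of Kcnj8 and 0 of Abcc9. The 131 listed pericytes that did not meet the rule had 896 CPM of Apod and 3928 CPM of Ptgds, with 875 CPM of Kcnj8 and 604 CPM of Abcc9.

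Of the 43 listed cells called oligodendrocytes, 22 had a UMI of Cldn11, at 727 CPM. Cldn11, a tight junction gene of both myelin and the arachnoid barrier, was found beside 10354 CPM of Mgp, 12824 CPM of Ptgds, 2909 CPM of Igfbp6, 323 CPM of Slc47a1, 312 CPM of Cdh1 and 242 CPM of Crabp2 in these cells. The myelin gene Mbp gave 1 UMI, and Mag, Mobp and Cnp gave 0 (interval up to 42.6 CPM).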

How the results depend on the processing

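The number of fibroblast-like cells moved from 305 to 134 with a minimum of 1000 UMIs per cell and to 182 without cells that met another class rule. Leaving out 1 library at a time gave 184 to 302 cells, the lowest without library 9. The counts of higher genes fell with the genes described: with at least 200 CPM they were 79 against all other cells, 44 against the pericyte rule and 85 against the smooth muscle rule, in place of 149, 98 and 185. Against the pericyte class drawn from Kcnj8 and Abcc9, chosen after seeing the data, the count was 229, without a share and with the limit on the direction check given above. Every other alternative left these counts within 1.5 times, and leaving out 1 library gave 148 to 168, 93 to 132 and 185 to 208. The ratio of the highest to the lowest library for Ptgds was 5.01 over the 5 libraries with at least 20 fibroblast-like cells. It was 2.33 with 5 UMIs of the rule genes, 3.38 with the listed cells kept and 4.33 with 1000 UMIs per cell. It was 4.04 without cells of another class, 3.83 as the mean over cells, and 2.29 to 5.01 with 1 library left out. The cause was not tested. The median level of the named genes, 455 CPM, stayed within its error under all alternatives run. Over 21 genes, 126 levels under other settings stayed inside their counting interval and 63 did not, and with 1 library left out 166 stayed and 23 did not. With 1000 UMIs per cell Apod was 5465 CPM in place of 8450 CPM and Serpinf1 194 CPM in place of 296 CPM. Levels in libraries 1, 2, 3 and 6 rest on 3, 7, 8 and 18 cells. No paired analysis was possible because the columns carry no replicate number and each group is 1 library.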
